A study of Rattus norvegicus with 6 samples.

Results

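The genes for the cartilage collagens of types II, IX and XI, Col2a1, Col9a1, Col9a2, Col9a3, Col11a1 and Col11a2, were read in RNA from rat subchondral bone, the bone under the joint cartilage. They were chosen by name, each name had 1 entry in the deposited table, and they are 6 of the 22050 annotated genes among 30600 entries with values. The study set rats at low temperature beside rats at normal temperature, and 6 libraries with the titles S10, S12, S13, S20, S21 and S23 were analysed here. All are labelled as subchondral bone cells of Rattus norvegicus, and no label used here ties a library to a temperature. Values are therefore given per library, and no effect of cold was tested. The sources used here give no strain, age or agent and do not say whether each library came from its own animal. The p-values below therefore test only whether levels of gene pairs went together over these libraries, whose differences may be technical.

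Type II collagen, a trimer of the Col2a1 product, is the main fibril of cartilage. Type IX collagen combines the products of Col9a1, Col9a2 and Col9a3 and sits on the surface of that fibril as a fibril-associated collagen with interrupted triple helices (FACIT). Type XI collagen lies in the core of the fibril, where it helps to start fibril formation, and combines the products of Col11a1 and Col11a2 with a further chain encoded by Col2a1. Chains of types XI and V can also assemble together, and Col11a1 is known outside cartilage as well.

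Total counts ran from 39990624 in S10 to 59200981 in S21. Markers of bone were present, with all 10 osteoblast genes at a median of at least 1 FPKM (fragments per length of transcript and per library size), and red cell transcripts were abundant, with a summed level of 7 erythroid genes that ran from 159174 FPKM in S23 to 432904 FPKM in S10. The same minimum was reached by 5 of 6 osteocyte, 6 of 8 osteoclast, 6 of 10 fibroblast and 8 of 9 neutrophil genes. In the deposited FPKM, 60.1% of the 11625 expressed genes (annotated, median of at least 1 FPKM) had their lowest value in S10. Scaling by TMM (trimmed mean of M-values) raised the median log2 level of expressed genes by 0.34 in S10 and changed it by -0.19 in S12, so levels between libraries are given on both scales where the order differs. A ratio of genes within a library does not depend on such a factor. In bulk tissue, fewer cells of a type and less RNA per cell cannot be told apart.

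Col2a1 was the most abundant of the 6 genes in every library and the third of all collagen genes by median, after Col1a1 and Col1a2, the chains of the type I collagen of bone. Col2a1 (ENSRNOG00000058560) had 59.1 FPKM in S10, followed by 152 (S12), 77.1 (S13), 113 (S20), 111 (S21) and 119 (S23). S10 and S13 lay below the other 4 libraries, and the highest value was 2.58-fold the lowest. After TMM scaling the same libraries were low, at 77.4 and 80.0 FPKM, the highest was again S12 at 132, and the fold was 1.70. Counts ran from 11671 to 32917, and the exact 95% Poisson interval in S10, 11460 to 11885 counts, is narrow beside these differences and covers counting error only.

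Among the type IX genes, Col9a1 was lower than its partners in all 6 libraries, while Col9a3 and Col9a2 exchanged places. Col9a1 (ENSRNOG00000012920) had 5.11 FPKM in S10, followed by 12.7 (S12), 5.93 (S13), 12.1 (S20), 9.88 (S21) and 11.1 (S23). Col9a3 (ENSRNOG00000009531) had 8.30, 25.5, 10.3, 20.7, 20.3 and 20.7 FPKM in the same order of libraries. Both genes had low values in S10 and S13, as Col2a1 did. Col9a2 (ENSRNOG00000011502) had 15.5 FPKM in S10, followed by 19.1 (S12), 10.1 (S13), 15.7 (S20), 20.3 (S21) and 17.5 (S23). Its low library was S13, its high library was S21, and S10 lay next to S20. TMM scaling moved Col9a2 in S10 to 20.3 FPKM, close to its highest value of 20.97 in S21, whereas Col9a1 and Col9a3 in S10 stayed low at 6.69 and 10.9 FPKM, beside 6.15 and 10.7 in S13.

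The type XI genes varied less as deposited and after TMM scaling, but not after centring each library in bins of gene length. Col11a1 (ENSRNOG00000023148) had 7.52 FPKM in S10, followed by 10.96 (S12), 7.86 (S13), 9.82 (S20), 8.65 (S21) and 8.05 (S23). Col11a2 (ENSRNOG00000000463) had 12.4, 18.9, 10.9, 14.9, 14.1 and 11.3 FPKM in the same order. Col11a2 was above Col11a1 in every library, both were highest in S12, and the highest value was 1.46-fold the lowest for Col11a1 and 1.74-fold for Col11a2. After TMM scaling S23 was the lowest library for both, at 7.44 and 10.4 FPKM, and S10 was among the highest, at 9.85 and 16.3 FPKM. After centring by length the range on the log2 scale was 0.86 for Col11a1 and 0.97 for Col11a2, above those of Col2a1 (0.53) and Col9a1 (0.68).

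**Figure D1:**
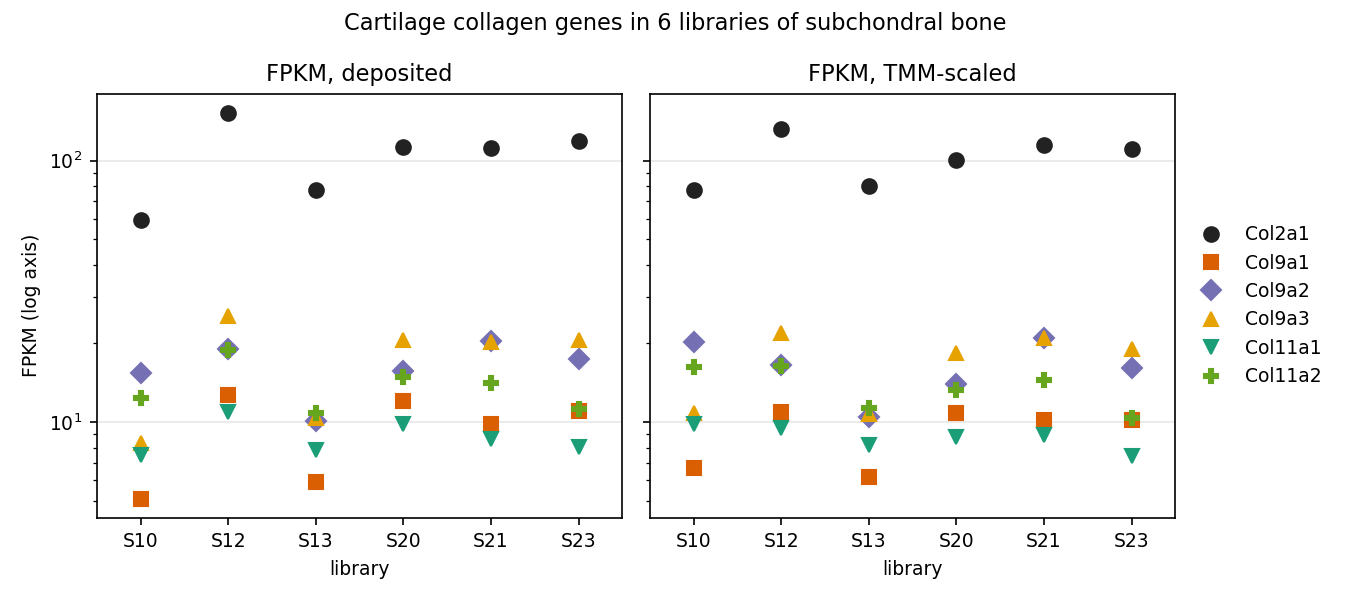
Level of each of the 6 genes in each library, in FPKM on a log axis, as deposited (left) and after TMM scaling (right). Points are single libraries. Col2a1 lies above the other genes in every library, and the Col9a1 and Col9a3 points of S10 and S13 lie low in both panels. Col9a2 in S10 lies just below S20 on the left and close to its highest value on the right.

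By median FPKM the order was Col2a1 (112), Col9a3 (20.5), Col9a2 (16.6), Col11a2 (13.3), Col9a1 (10.5) and Col11a1 (8.35). Several neighbours in this order were not separated by every library. Col9a3 was above Col9a2 in 4 of 6 libraries, Col9a2 above Col11a2 in 5 of 6, and Col9a1 above Col11a1 in 4 of 6. Col11a2 was above Col9a1 in all 6. All 6 genes were expressed at a median of at least 1 FPKM, as were 52.7% of all annotated genes.

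Spread over the libraries was read against that of all expressed genes. A range of log2(FPKM + 1) of at least 1 was found for Col2a1, Col9a1 and Col9a3, 3 of 6 genes beside 36.6% of expressed genes. Col9a3 had the widest range at 1.51, wider than that of 87.4% of expressed genes, and Col11a1 the narrowest at 0.49, wider than 20.1%. After centring by length Col2a1 had the narrowest range of the 6. After TMM scaling 0 of 6 genes reached a range of 1, beside 29.4% of expressed genes, and in the deposited values without S10 only Col9a3 did, beside 13.6%. With so few genes, these counts are not read as a difference from the background. S12 was the highest library for 5 of 6 genes as deposited and for 4 of 6 after TMM scaling, beside 26.6% and 13.4% of expressed genes. S13 was the lowest for 2 and 3 of 6, beside 4.09% and 3.79%. S10 and S13 both lay below the other 4 libraries for 5 of 6 genes as deposited, beside 22.9% of expressed genes, and for 3 of 6 after TMM scaling, beside 9.2%; those were Col2a1, Col9a1 and Col9a3. S12 also had the highest summed level of the skeletal muscle list, 136 FPKM beside 13.4 to 57.2 in the other libraries with 5 of 9 listed genes at a median of at least 1 FPKM, and of the adipocyte list, 445 FPKM beside 86.5 to 255 with 6 of 7. The part of these cells in the S12 values was not tested.

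The 6 genes together held 22.4% to 32.1% of the summed FPKM of all 43 collagen genes. Their share was lowest in S13 and highest in S21. Type I collagen, Col1a1 and Col1a2 together, held 45.9% in S23 to 61.1% in S10. Col2a1 alone held 14.1% to 19.4%, the type IX genes 4.82% to 8.80% and the type XI genes 3.07% to 4.91%. Next to them in level stood Col10a1, the collagen of hypertrophic cartilage, at a median of 19.1 FPKM, Col3a1 of soft connective tissue at 15.8, and the type VI genes Col6a2 and Col6a1 at 12.6 and 12.1 FPKM. Col5a2, a chain of type V collagen, had a median of 8.65 FPKM, close to that of Col11a1, while Col4a1 of basement membranes and the membrane-spanning collagen gene Col13a1 were lower at 5.60 and 4.92 FPKM.

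**Figure D2:**
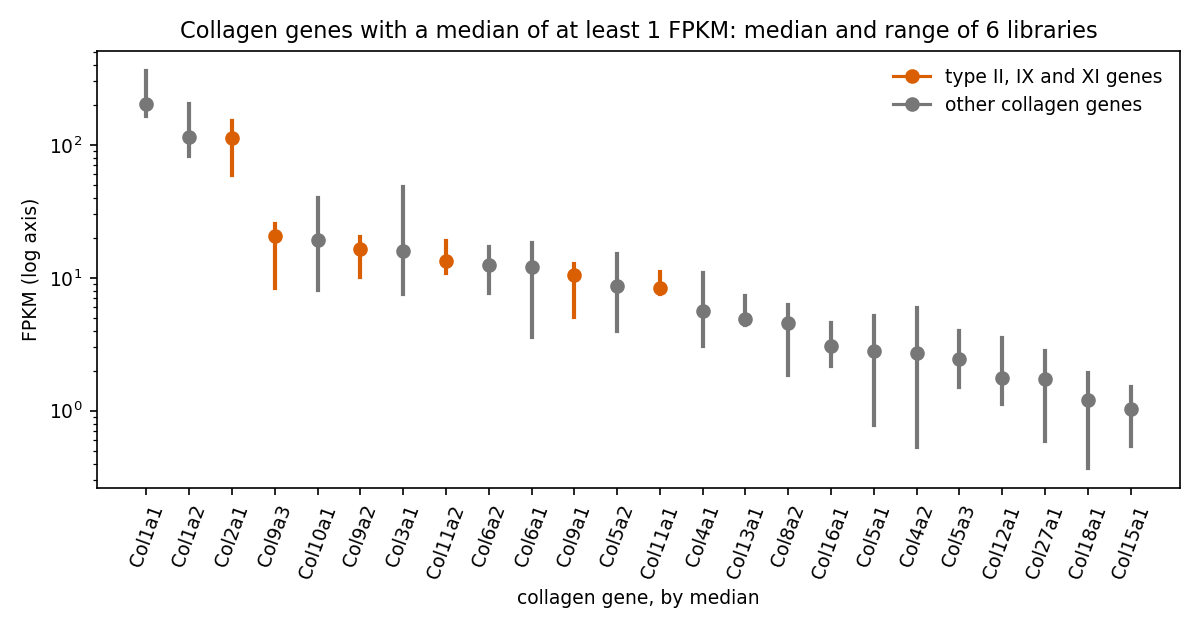
Median (point) and range over 6 libraries (line) of each collagen gene with a median of at least 1 FPKM, on a log axis, ordered by median. The 6 genes of types II, IX and XI, in colour, take places 3, 4, 6, 8, 11 and 13.

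Relative to type I collagen, Col2a1 was higher in S21 and S23 than in the other libraries. The ratio Col2a1:Col1a1, from FPKM and hence per length, was 0.356 in S10, followed by 0.421 (S12), 0.364 (S13), 0.453 (S20), 0.581 (S21) and 0.654 (S23). Relative to Col10a1, Col2a1 was lowest in S20 at 2.93 and highest in S10 at 7.33, with 3.81 in S12, 3.98 in S13, 5.91 in S21 and 7.19 in S23. The libraries with little Col10a1 per Col2a1 thus included S10, where the Col2a1 level itself was lowest. Relative to Acan, the core protein of the cartilage proteoglycan aggrecan, Col2a1 was 19.4 to 28.9 times as high.

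Type IX transcripts were not found in a fixed proportion, and the ratios that varied most were those to Col9a2. The ratio Col9a1:Col9a2 was 0.330 in S10, followed by 0.664 (S12), 0.587 (S13), 0.773 (S20), 0.485 (S21) and 0.634 (S23). The ratio Col9a3:Col9a2 was 0.537, 1.33, 1.03, 1.32, 0.9996 and 1.18 in the same order. S10 was the lowest library for both ratios, and Col9a2 made up 53.5% of type IX FPKM there, beside 32.3% to 40.2% in the other 5. By contrast, Col9a3:Col9a1 kept within 1.63 and 2.06. Counting error does not span the distance of S10, since the exact 95% binomial interval (Clopper-Pearson) of Col9a1:Col9a2 was 0.304 to 0.358 in S10 and 0.461 to 0.511 in S21, the next library. The interval of Col9a3:Col9a1 was 1.47 to 1.80 in S10 and 1.95 to 2.18 in S21, so this ratio also varied beyond counting error.

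A single library, S10, set most of this spread. The largest Col9a3:Col9a2 ratio was 2.48-fold the smallest over 6 libraries and 1.33-fold without S10, and for Col9a1:Col9a2 these folds were 2.34 and 1.59. All pairs of 11588 expressed genes with no value of 0 had a median fold of 2.46, and 1.92 without S10. Of these pairs, 50.6% had a smaller spread than Col9a3:Col9a2 and 8.25% without S10. For Col9a1:Col9a2 these shares were 46.1% and 27.6%. For Col9a3:Col9a1, at 1.27-fold, 1.66% of pairs had a smaller spread, and 2.11% without S10 at 1.20-fold. When each library was centred in bins of gene length, the folds of Col9a3:Col9a2 and Col9a3:Col9a1 were 3.26 and 1.51. The span of the annotated long noncoding gene LOC108351024 overlaps that of Col9a2 in the RefSeq annotation of GRCr8. The sources used here do not say whether the counting used strand. The Col9a2 count may therefore include reads of that gene, which was not tested.

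The proportion of the type XI chains varied little beside other pairs of genes, though by more than counting error. Col11a2:Col11a1 was 1.65 in S10, followed by 1.73 (S12), 1.39 (S13), 1.52 (S20), 1.63 (S21) and 1.40 (S23). The exact 95% binomial interval was 1.32 to 1.45 in S13 and 1.66 to 1.80 in S12. The largest ratio was 1.25-fold the smallest, and 1.27% of all pairs of expressed genes had a smaller spread. Leaving out S10 did not change that fold, while 3.71% of pairs then had a smaller spread. For scale, the type I ratio Col1a1:Col1a2 ran from 1.70 to 2.01, a fold of 1.19. The length implied by counts and FPKM was constant to within 0.0543% for the other 5 genes relative to Col2a1 but varied by 3.38% for Col11a2, which is small beside the differences between libraries. A tRNA gene, Trnal-aag14, overlaps the annotated span of Col11a1, and whether its reads entered the Col11a1 count was not tested.

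**Figure D3:**
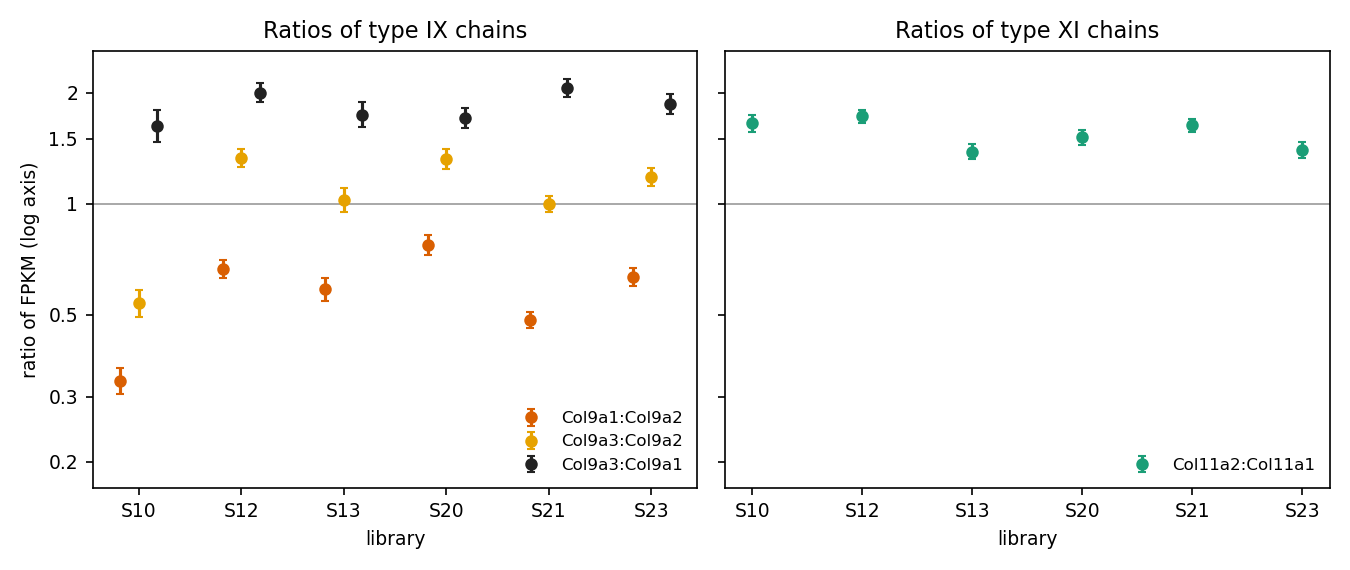
Ratio of FPKM between chains of type IX collagen (left) and of type XI collagen (right) in each library, on a log axis, with the grey line at equal levels. Bars are exact 95% binomial intervals of the counts and cover counting error only. Both ratios to Col9a2 are lowest in S10, at 0.330 and 0.537, while Col9a3:Col9a1 and Col11a2:Col11a1 stay within a narrow band.

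Between collagen types the ratios varied more than within type XI. Col2a1 was 6.14 to 8.78 times the mean of the type IX genes, lowest in S10 and highest in S13. Against the mean of the type XI genes it was 5.93 times in S10 and 12.4 times in S23. Col2a1 kept a narrow ratio to Col9a1, 9.33 to 13.01, and to Col9a3, 5.46 to 7.45. To Col9a2 it ran from 3.82 in S10 to 7.97 in S12. Of the 15 ratios between the 6 genes, 11 spread at least 1.5-fold over the libraries, and 8 did so without S10. The 4 that did not were Col11a2:Col11a1, Col9a3:Col9a1, Col2a1:Col9a3 and Col2a1:Col9a1. Most pairs of expressed genes spread as much, since 9.65% spread less than Col11a1:Col1a1, at 1.498-fold. Without S10, 20.1% spread less than Col2a1:Col11a2, at 1.496-fold. These counts are therefore not read as a result about the 6 genes.

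Against type V collagen, the partner family of type XI, the ratio varied more than between the type XI chains. Col11a1:Col5a1 was 9.66 in S10 and 2.11 to 4.69 in the other libraries, and Col11a1:Col5a2 was 1.89 in S10 and 0.730 to 1.26 in the others. Col5a1 itself had 0.779 FPKM in S10 and 5.19 FPKM in S12. The largest Col11a1:Col5a1 was 4.57-fold the smallest, and 82.3% of all pairs of expressed genes had a smaller spread. Without S10 the fold was 2.22, with 64.2% of pairs smaller. For Col11a1:Col5a2 the folds were 2.59 and, without S10, 1.73, with 53.8% and 37.8% of pairs smaller.

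**Figure D4:**
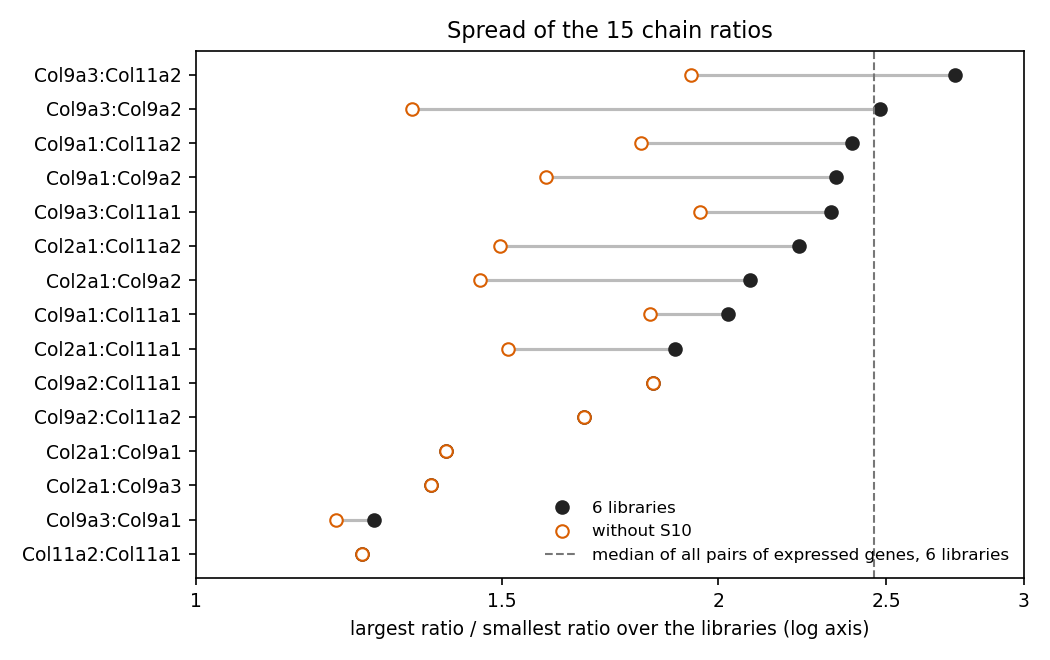
Largest ratio divided by smallest ratio over the libraries for each of the 15 pairs of genes, on a log axis, with all 6 libraries (filled) and without S10 (open). The dashed line is the median of all pairs of expressed genes over 6 libraries, 2.46. Col9a3:Col9a2 shortens most when S10 is left out, from 2.48 to 1.33.

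Correlations of log2(FPKM + 1) over the 6 libraries were computed for the same pairs. Col9a1 and Col9a3 had Pearson r = 0.99 and Spearman rho = 1 (exact permutation test over 720 pairings, two-sided, p = 0.00139 for r, the smallest the design allows, and p = 0.00278 for rho). With Benjamini-Hochberg adjustment over the 15 pairs, the adjusted p for r was 0.0208. Col2a1 with Col9a1 had r = 0.96 and rho = 0.94 (exact permutation p = 0.00417 and 0.0167), and Col2a1 with Col9a3 had r = 0.98 and rho = 0.94 (exact permutation p = 0.00278 and 0.0167), each with an adjusted p of 0.0208 for r and 0.05 for rho. Col11a1 with Col11a2 had r = 0.92 and rho = 0.83 (exact permutation p = 0.00833 and 0.0583), with adjusted p of 0.0313 for r and 0.125 for rho. Only these 4 pairs passed an adjusted p of 0.05 by r. By rho 5 pairs passed, the 3 among Col2a1, Col9a1 and Col9a3 and also Col11a1 with Col9a1 and with Col9a3, each of the latter with rho = 0.94 (exact permutation p = 0.0167, adjusted p = 0.05). The type XI pair thus passed by r and not by rho, and Col11a1 passed by rho with type IX genes. These passes by rho depended on the scaling. After TMM scaling, and after centring by length, 0 pairs passed by rho, with 2 at an unadjusted p of at most 0.05 (exact permutation test). After TMM scaling rho of Col11a1 was 0.09 with Col9a1 and 0.2 with Col9a3.

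Without the 2 libraries farthest from the median of the first gene, r was 0.98 for Col2a1 with Col9a3, 0.71 for Col9a1 with Col9a3, 0.69 for Col2a1 with Col9a1 and 0.59 for Col11a1 with Col11a2. The libraries left out were S10 and S13, and S12 and S20 for the type XI pair, so the last 3 of these relations rested in part on them. TMM scaling left r of the 4 pairs between 0.91 and 0.97, of which Col2a1 with Col9a3 and the type XI pair passed. After TMM scaling and without S10 and S13, r was 0.94 for Col2a1 with Col9a3 but 0.29 for Col2a1 with Col9a1 and 0.18 for Col9a1 with Col9a3, so these last relations rested on S10 and S13. For the type XI pair r was 0.99 without S10 and S23. Centring by gene length left r between 0.82 and 0.94, of which 0 passed by the exact permutation test while 4 of all 15 pairs had an unadjusted p of at most 0.05, and without S10 and S13 r of Col9a1 with Col9a3 was then -0.15. Leaving out S10, S12, S13 or S21 also brought the number passing to 0, with 3 or 4 pairs at an unadjusted p of at most 0.05, and with 5 libraries the exact test cannot go below 0.00833.

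Col9a2 did not pass with any other gene of the 6. Its r was 0.64 with Col9a1, 0.68 with Col9a3, 0.60 with Col2a1, 0.45 with Col11a1 and 0.60 with Col11a2 (exact permutation tests, adjusted p from 0.226 to 0.392). Without S10, r of Col9a2 as deposited was 0.83 with Col9a1 and 0.92 with Col9a3. Without the 2 farthest libraries it was -0.48 with Col9a1 (S10 and S13 left out) and 0.70 with Col9a3 (S13 and S21 left out). After TMM scaling these 2 values were -0.61 and -0.76, so r of Col9a2 depended on the libraries kept and on the scaling. The r of the type XI genes with Col2a1, Col9a1 and Col9a3 ran from 0.63 to 0.81 as deposited and from 0.82 to 0.92 with values rescaled to a common sum. It ran from -0.09 to 0.15 after TMM scaling, negative for Col11a1 and positive for Col11a2, and from -0.60 to 0.04 after centring by length. Its size, and for most of these pairs its sign, thus depended on the scaling. Without the 2 farthest libraries it ran from 0.48 to 0.76 after TMM scaling (S10 and S13 left out) and from -0.18 to 0.62 after centring by length. The median r of the 15 pairs was 0.68 beside 0.30 for all pairs of expressed genes, and 0.31 beside 0.01 after TMM scaling. Whether r differed between pairs was not tested.

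**Figure D5:**
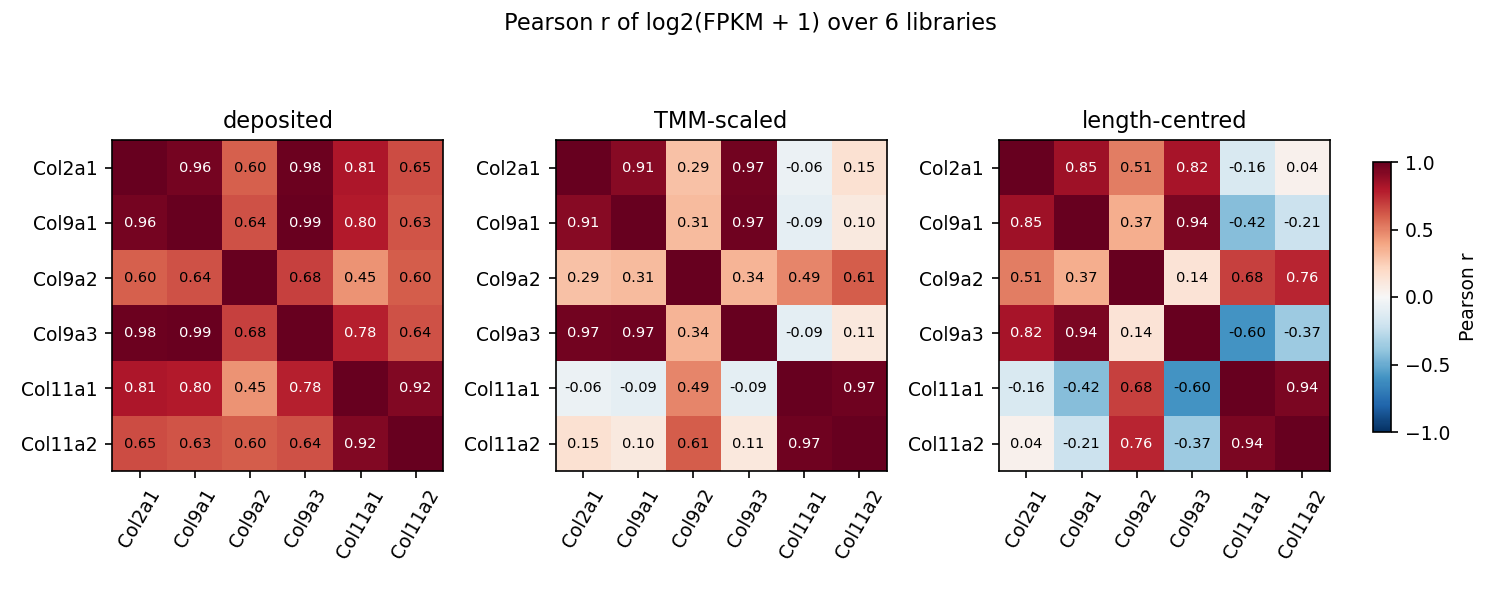
Pearson r of log2(FPKM + 1) over 6 libraries between the 6 genes, for deposited FPKM (left), after TMM scaling (middle) and after centring each library in bins of gene length (right). Col2a1, Col9a1 and Col9a3 keep r of at least 0.82 among themselves in all panels, as do Col11a1 and Col11a2, while r between these 2 groups is at least 0.63 as deposited and at most 0.15 in the other panels.

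Promoter sequences are shown for Col9a1 with Col9a2 of type IX and for Col11a1 with Col11a2 of type XI. The promoter table of RefSeq for GRCr8 held 4 of the 6 genes, and Col2a1 and Col9a3 are named only. Each sequence is the 150 bases before the annotated start, 5′ to 3′ on the strand of the gene. Capitals mark matches to GGGCGG, the core of a GC box, or to CCAAT, each searched on both strands. They lie at chr9:34081214-34081363 (plus strand) for Col9a1, chr5:139892648-139892797 (plus) for Col9a2, chr2:204508986-204509135 (plus) for Col11a1 and chr20:4817649-4817798 (minus) for Col11a2.
Col9a1: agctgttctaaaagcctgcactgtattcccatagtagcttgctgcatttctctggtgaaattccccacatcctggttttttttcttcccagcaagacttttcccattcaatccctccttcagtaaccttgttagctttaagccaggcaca
Col9a2: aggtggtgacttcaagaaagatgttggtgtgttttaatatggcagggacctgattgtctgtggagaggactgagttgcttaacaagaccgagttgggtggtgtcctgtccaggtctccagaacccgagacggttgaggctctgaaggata
Col11a1: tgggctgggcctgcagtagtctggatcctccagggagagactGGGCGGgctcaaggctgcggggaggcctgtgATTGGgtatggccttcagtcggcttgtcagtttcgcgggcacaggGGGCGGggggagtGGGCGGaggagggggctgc
Col11a2: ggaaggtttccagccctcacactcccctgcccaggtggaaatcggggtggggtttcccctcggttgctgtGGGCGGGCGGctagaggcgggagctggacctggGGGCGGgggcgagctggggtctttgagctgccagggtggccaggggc

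The type XI windows were rich in G and C, at 68.7% for Col11a1 and 70.7% for Col11a2, and those of type IX were not, at 44% for Col9a1 and 50% for Col9a2, beside a median of 52.7% over 33469 promoters. Each type XI window held 3 matches to GGGCGG, which 4.60% of all windows did, while 26.0% held at least 1. In Col11a2 a pair of these matches overlap each other, and the annotated start lies 844 bases inside the span of the gene. Col11a1 also held CCAAT on the reverse strand, present in 23.5% of windows. The Col9a1 and Col9a2 windows held none of the motifs searched, and TATAAA (8.001% of windows) and ACAAAG (9.75%), a motif of the SOX family, were in none of the 4. These matches describe the letters of the windows and were not tied to the levels.

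Genes whose pattern over the 6 libraries was most like that of each gene were named by the highest r among expressed genes, as a description. For Col2a1 they were P3h1, a prolyl 3-hydroxylase that modifies collagen, with r = 0.999, the mitochondrial seryl-tRNA synthetase gene Sars2 (0.99) and the lysosomal glucosidase gene Gaa (0.99). The likeness of P3h1 depended on scaling, with r = -0.18 after TMM, while Sars2 and Gaa kept 0.98 and 0.97. For Col9a3 they were Fam160b2 (0.997), Gaa (0.99) and Uck2 (0.99), and for Col9a1 Cdk20 (0.996), Klhl30 (0.995) and Dcaf15 (0.99). For Col9a2 they were Dph7 (0.99), Slx1b (0.99) and Sec22b (0.97). No gene was named for more than 1 of the type IX genes. For Col11a1 they were Ldlrad1 (0.99), Hadha (0.99) and Sash1 (0.99), and for Col11a2 Exoc3l1 (0.98), Phlda1 (0.98) and F11r (0.98). Of the 18 places, 7 were filled by the same genes after TMM scaling and 1 after centring by length.

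Other cartilage genes were present around the 6. Of 15 listed genes of non-collagen cartilage matrix, 14 had an entry and 12 a median of at least 1 FPKM, with a list median of 9.35 FPKM beside 9.11 for all expressed genes. The highest were Comp, a pentameric matrix protein that binds collagen fibrils (32.0 FPKM), Cnmd, the antiangiogenic chondromodulin (20.3), Chad, a cell-binding leucine-rich protein (17.3), and Hapln1, the link protein of aggrecan (16.2). Acan had a median of 4.38 FPKM. Matn1, a matrilin of cartilage, had 0 to 16 counts per library.

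In the deposited values Comp was the gene of this list with the highest r with Col9a2, and after TMM scaling it was Matn3, another matrilin. Comp had 25.6 FPKM in S10, followed by 39.9 (S12), 23.8 (S13), 29.4 (S20), 41.3 (S21) and 34.7 (S23). S13 was thus the lowest and S21 the highest library for Comp and for Col9a2. The r of Comp with Col9a2 was 0.89 as deposited and 0.90 after TMM scaling, and that of Matn3 was 0.83 and 0.95. The ratio Col9a2:Comp ran from 0.423 in S13 to 0.603 in S10. With Col2a1, Hapln1 had the highest r of the list as deposited, at 0.94. Ucma, a matrix protein of upper growth zone cartilage, had the lowest at -0.73. After TMM scaling r of Hapln1 was 0.57, while Acan had the highest at 0.78 and Ucma the lowest at -0.62. Over the 12 genes the median r was 0.77 with Col2a1 and 0.35 with Col9a2 as deposited, and 0.24 and 0.55 after TMM scaling, so the order of these medians depended on the scaling. These r values are descriptions over libraries that differed in depth and in the summed levels of muscle, adipocyte and erythroid genes.

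The SOX factors that drive cartilage collagen genes were low beside their targets. Sox9 had 41 to 97 counts per library and a median of 0.398 FPKM, Sox5 had 4 to 45 counts and a median of 0.121 FPKM, and Sox6 had 2.36 to 8.73 FPKM. Sox6 and Sox9 were highest in S20 as deposited, as were 28.8% of expressed genes. S20 was the highest library for none of the 6 collagen genes, which with so few genes is not read as a difference from that share. Sox6 is also known in erythroid cells. All 8 genes of the hypertrophic cartilage list were expressed at this minimum, and Col10a1 ran from 8.06 FPKM in S10 to 40.03 FPKM in S12. Several genes of that list, such as Mmp13, a collagenase that cleaves type II collagen (103 to 179 FPKM), are also made by bone cells.

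Enzymes and chaperones that make collagen were expressed for the most part. Of 27 listed genes, 25 had an entry and 21 a median of at least 1 FPKM, with a list median of 4.88 FPKM. P4hb, a subunit of prolyl 4-hydroxylase, had a median of 204 FPKM, the cyclophilin gene Ppib 192, the collagen chaperone gene Serpinh1 45.9 and the hydroxylysine galactosyltransferase gene Colgalt1 23.9 FPKM. In the deposited values 19 of the 21 expressed genes were lowest in S10, beside 60.1% of all expressed genes. Of 14 receptor and degradation genes, 10 were expressed. Itga10, a chondrocyte integrin that binds type II collagen, had 0.828 to 1.98 FPKM, and Ddr2, a collagen receptor kinase, had 0.514 to 2.19 FPKM.

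Other FACIT genes were below type IX. Of 7 listed, 6 had an entry and 2 a median of at least 1 FPKM, Col16a1 at 3.07 FPKM and Col12a1 at 1.76 FPKM. Col22a1, Col14a1 and Col20a1 had medians of 0.726, 0.462 and 0.163 FPKM, and Col19a1 had 0 to 6 counts. Of the other fibrillar genes, all 7 with a median of at least 1 FPKM were lowest in S10 as deposited. So were 60.1% of expressed genes and 4 of the 6 cartilage genes, all but Col11a2 and Col9a2. After TMM scaling S10 was no longer the lowest library for Col1a1 and Col1a2. It stayed the lowest for Col3a1, Col5a1, Col5a2, Col5a3 and Col27a1, beside 32.9% of expressed genes. Col3a1 ran from 7.59 (S10) to 48.1 FPKM (S23), and Col5a3 and Col27a1 had medians of 2.45 and 1.73 FPKM. Col24a1 was under the minimum at 0.219 FPKM.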

How the data were processed

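The labels' protocols state an RNeasy extraction and a SMARTER mRNA-Seq library kit. The authors deposited whole-number counts, not normalized, and FPKM values scaled by the authors to library size, per the file headers. The sources used here name no aligner or counter. The submitters' processing notes name GRCm38 and mm10, builds of the mouse genome, but the IDs belong to rat Ensembl genes, so no gene coordinates were taken from the files. Of 30610 entries, 10 had no values.

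The 6 genes and 15 lists were chosen with earlier results of these data known. FPKM served for levels and ratios, log2(FPKM + 1) for spread and correlation, and counts for exact 95% intervals. With no groups in the labels, no model of counts was fitted to compare libraries. Named genes were the 6 genes, ratio partners, the 15 highest collagens, the 3 most similar genes each, up to 4 highest genes per list and every SOX, fibrillar and FACIT gene. Itga10, Ddr2, Matn1, Matn3 and Ucma fall outside these rules and were chosen after their values were seen. TMM factors came from edgeR 4.0.16 in R 4.3.3, and other steps used Python 3.11.15, numpy 2.4.6, scipy 1.17.1 and pandas 2.3.3. Length centring removed the library median in 20 bins of implied gene length. The correlation and spread steps were tested on simulated data.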

Additional observations from a re-analysis of the deposited data

How the results depend on the processing

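Of 15 chain ratios, 11 spread at least 1.5-fold with FPKM and with raw counts, 13 with length centring and 8 to 11 when a library was left out, the lowest without S10. Most pairs of expressed genes also spread this much in FPKM, with all libraries and without S10. The count of genes with a range of at least 1, 3 as deposited, was 0 under TMM and 0 under median-ratio scaling, and 1 to 3 when a library was left out. Of 15 pairs, 4 passed by Pearson r as deposited, 2 under TMM, 2 under median-ratio scaling and 7 with values rescaled to a common sum. With length centring 0 passed by r (4 at an unadjusted p of at most 0.05 by the exact permutation test). When a library was left out, 0 to 3 passed by r (3 to 9 unadjusted). By Spearman rho 5 passed as deposited and 0 under TMM, median-ratio scaling or length centring (2 unadjusted in each). With a common sum, Col11a1 passed by rho with Col9a1 and with Col9a3 (exact permutation test, adjusted p = 0.0139 each). Of the 18 most similar genes, 7 were shared under TMM, 7 under median-ratio scaling, 5 with a common sum, 1 with length centring, 3 by Spearman rho and 1 to 7 when a library was left out. The sign of r between type XI genes and Col2a1, Col9a1 or Col9a3 turned for most of these pairs under TMM scaling or length centring. The order of the ranges of types II and XI turned under length centring, as reported above. Causes were not tested, except that a left-out library leaves fewer pairings. The spread of all pairs without S10 was added after seeing the data. No paired analysis was possible because the labels give no groups. Depth did not limit the 6 genes, whose counts were at least 738, but it limits Matn1, Col19a1 and Sox5.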
